A study of Mus musculus with 18 samples.

Results

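PD883 is a mouse pancreatic ductal adenocarcinoma cell line, and its response to ionomycin was set against that of the lines PD454 and PD7591 of the same study. Its 4 libraries of the 18 in the series, 2 with the vehicle DMSO and 2 with 2.5 µM ionomycin, both for 48 h, were chosen by line and treatment alone. The 8 DMSO and ionomycin libraries of the other lines were the reference. The 6 remaining libraries were kept with 10 ng/ml TGFb, also for 48 h. All lines were of mixed strain background and were grown in the same supplemented medium, which held insulin, dexamethasone, cholera toxin, nicotinamide and thyroid hormone. The sources used here name neither their genotypes nor whether a line is 1 clone. There were 2 libraries for every line and treatment, 9 groups in all, and the labels do not say that these came from separate cultures, so p-values measure only the spread between libraries, which may be technical.

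Ionomycin is an ionophore that carries calcium across membranes. A lasting rise of calcium in the cytosol activates calcineurin, which sends NFAT factors to the nucleus, and loss of calcium from the endoplasmic reticulum starts the stress pathways of that compartment. Pancreatic carcinoma cells also run glycolysis at a high rate, and many of its enzymes are targets of the hypoxia-inducible factors, which prolyl hydroxylases of the EGLN family keep in check.

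The ionomycin effect in each line is the log2 difference between its ionomycin and DMSO groups. The contrast described below is the effect in PD883 minus the mean of the effects in PD454 and PD7591, fitted over all 13827 tested genes (edgeR quasi-likelihood test, called at a Benjamini-Hochberg adjusted p under 0.05). A gene is called separated when PD883 also differed, in the same direction, from PD454 alone and from PD7591 alone. Values are given as CPM (library-scaled counts, with TMM factors for composition), libraries are named by their number in the labels, and errors are SE.

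Total counts in the 12 libraries ran from 17591005 to 32693557. Across genes, duplicates correlated at r of 0.981 to 0.992, and none agreed within sampling noise. The DMSO pairs of PD883 and PD454 were the least alike, both at 0.981. The ribosomal RNA gene Rn45s held 0.396% and 0.283% of counts in PD883 DMSO libraries 7 and 8. It held 0.304% and 1.6% in PD883 ionomycin libraries 9 and 10, and 1.06% to 4.11% in the 8 libraries of the other lines. A fit without this gene, chosen after seeing the data, called 62 higher and 164 lower genes, with 7 and 35 separated. What set these shares was not tested. PD883 DMSO library 7 was low in cell cycle genes (the values stand beside those genes below), and library 8, like DMSO PD454 14, held more short transcripts, with r = -0.21 for both between transcript length and deviation from the mean of the libraries. The ductal keratin genes Krt8, Krt18 and Krt19 each had at least 9099 counts in these 12 libraries, while with TGFb Krt19 had 78 to 1305 counts. The ductal marker Epcam was only 2.00 to 4.30 CPM in these 12 libraries. Summed over 12 ductal markers, PD883 held 7114 to 8158 CPM with DMSO and 6837 to 7650 CPM with ionomycin. The acinar gene Cpa1 and the endocrine gene Ins1 had 0 counts everywhere. The leukocyte gene Ptprc had 1 to 5 counts in each of the 12 libraries. Other markers were not silent. The immune marker Cd68 had 98 and 80 counts with DMSO and 579 and 218 with ionomycin in PD883. It went from 49 and 93 to 197 and 123 counts in PD454, and from 56 and 61 to 257 and 315 in PD7591. Summed acinar markers in PD883 held 1.0 to 1.2 CPM with DMSO and 2.7 to 3.7 CPM with ionomycin. In PD454 they held 1.8 to 2.6 and 2.4 to 3.2 CPM, and in PD7591 0.17 to 0.59 and 2.7 to 3.4 CPM. Squamous and basal markers held 72.1 to 76.75 and 132.3 to 149.6 CPM in PD883. In PD454 they held 21.3 to 31.9 and 80.6 to 86.6 CPM, and in PD7591 25.3 to 26.1 and 30.0 to 35.6 CPM. Endothelial markers held 78.4 to 153.2 and 45.1 to 47.9 CPM in PD883. In PD454 they held 37.85 to 66.3 and 62.3 to 62.4 CPM, and in PD7591 76.7 to 93.5 and 72.8 to 84.5 CPM. The part of other cells was not tested.

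Relative to the other lines, more genes were lower than higher after ionomycin in PD883. Of the 13827 genes, 66 (0.477%) were higher and 145 (1.05%) were lower in the contrast, 211 (1.53%) in all. The separated genes were 7 higher (0.0506%) and 31 lower (0.224%), 38 (0.275%) in all. Within PD883 itself 1599 genes (11.6%) rose and 1513 (10.9%) fell. In PD454 1618 (11.7%) rose and 1291 (9.34%) fell, and in PD7591 1543 (11.2%) rose and 1025 (7.41%) fell. Against PD454 alone, PD883 was higher for 24 genes (0.174%) and lower for 113 (0.817%). Against PD7591 alone, it was higher for 121 (0.875%) and lower for 177 (1.28%). The median contrast over all genes was -0.01. These counts rest on single libraries: without DMSO PD883 8 there were 242 higher and 278 lower genes, without DMSO PD883 7 there were 10 and 33, and without ionomycin PD883 9 there were 5 and 15. Leaving out DMSO PD883 8 and DMSO PD454 14 together gave 208 higher and 238 lower genes, a more even split. The calls of 18 of the 211 genes held in each of the 12 fits that leave out 1 library, and all 211 kept their sign.

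**Figure D1:**
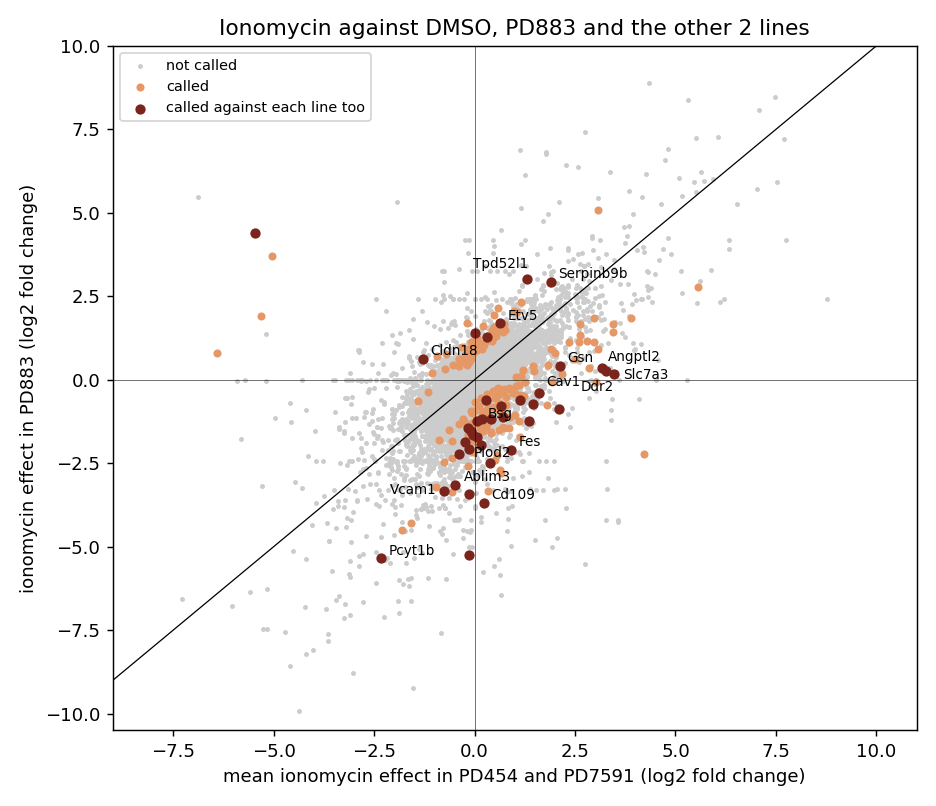
Ionomycin effect in PD883 (vertical axis, log2 fold change) against the mean effect in PD454 and PD7591 (horizontal axis, log2 fold change) for 13827 genes, with the line of equal effects. Each point is 1 gene, and the 211 called genes are coloured, the 38 separated ones darkest; 145 of the 211 lie below the line. Fitted effects of genes with few counts, at the far edges, depend on the prior count.

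The 145 lower genes reached that state in several ways. In 56 PD883 fell while the mean of the others passed no test, in 21 PD883 fell while the others rose, and in 41 the others rose while PD883 passed no test. In 13 both fell, PD883 further, and in 14 both rose, PD883 less. Among the 66 higher genes, 29 rose in PD883 while the others passed no test, 21 rose in both, 7 rose in PD883 while the others fell, 8 fell in the others alone, and 1 fell in both. Over all 13827 tested genes, PD883 alone fell in 698, and it fell while the others rose in 24. The others alone rose in 1310, both fell in 791 and both rose in 1082. PD883 alone rose in 510, it rose while the others fell in 7, and the others alone fell in 1268. The called genes were picked by the contrast of these same effects, so the patterns are a description.

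Many of the genes differed between the lines before ionomycin. Of the 145 lower genes, 104 (71.7%) were higher in PD883 than in the other lines with DMSO, against 20.6% of all tested genes, and 7 (4.83%) were lower, against 16.9%. With ionomycin 19 of the 145 (13.1%) were higher in PD883, near the 14% of all tested genes, and 72 (49.7%) were lower, against 11.5%. Of the 66 higher genes, 51 (77.3%) were lower in PD883 with DMSO, against 16.9% of all tested genes. The contrast is the line difference with ionomycin minus that with DMSO, so these counts use the same libraries and are a description. Of the 31 separated lower genes, 18 (58.1%) were higher in PD883 with DMSO, against 20.6% of all tested genes. With ionomycin 22 (71%) were lower there, against 11.5%.

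The 3 genes with the smallest p in the contrast were Vcam1, Fes and Cd109, all lower in PD883. Vcam1, an adhesion molecule that binds leukocyte integrins (mm10, chr3:116109949-116129688, minus strand), stood at 41.5 and 39.9 CPM in the PD883 DMSO libraries and at 4.47 and 3.67 CPM with ionomycin. In PD454 it went from 40.3 and 45.1 to 28.6 and 30.2 CPM, and in PD7591 from 110 and 149 to 58.8 and 70.9 CPM. The PD883 ionomycin libraries thus lay far below all others. The effect was -3.32 ± 0.21 in PD883, -0.54 ± 0.18 in PD454 and -1 ± 0.18 in PD7591, and the contrast of -2.55 ± 0.24 (adjusted p = 0.00049) had the smallest p of all genes. Cd109, a surface protein that binds TGFb (chr9:78615546-78716253, plus strand), was at 12.6 and 8.59 CPM with DMSO in PD883 and at 0.348 and 1.27 CPM with ionomycin. All 8 libraries of the other lines held 2.01 to 3.17 CPM. PD883 therefore went from the highest to the lowest of the lines, with an effect of -3.69 ± 0.38 against -0.09 ± 0.36 and 0.57 ± 0.36 (contrast -3.93 ± 0.46, adjusted p = 0.00214).

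Fes, a cytoplasmic tyrosine kinase (chr7:80377756-80387946, minus strand), fell in PD883 from 1.94 and 1.91 to 0.547 and 0.342 CPM. It rose in PD7591 from 1.76 and 2.44 to 5.74 and 5.43 CPM, and in PD454 it was 18.8 and 18.8 with DMSO and 23.8 and 27.3 CPM with ionomycin. The lines thus moved apart, and the contrast was -3.02 ± 0.33 (adjusted p = 0.00184). The calls of Vcam1, Cd109 and Fes held in all 12 fits that leave out a library.

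Ablim3 and Sdc2 fell in PD883 as well. Ablim3, an actin-binding protein, went from 5.25 and 3.23 to 0.596 and 0.342 CPM, with an effect of -3.15 ± 0.36 against -0.04 ± 0.27 in PD454 and -0.92 ± 0.30 in PD7591. Its contrast was -2.67 ± 0.42 (adjusted p = 0.0108) and held in all 12 fits. Sdc2, a heparan sulphate proteoglycan of the cell surface chosen after its values were seen, went from 3.19 and 2.82 to 1.24 and 1.42 CPM. It was the weakest of these calls (contrast -1.35 ± 0.27, adjusted p = 0.0244), lost without ionomycin PD454 16 (adjusted p = 0.0582), DMSO PD7591 1 (0.0647), DMSO PD883 7 (0.12) or ionomycin PD883 9 (0.134), and with limma-voom (0.0724).

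Pcyt1b, an enzyme of phosphatidylcholine synthesis, fell in all 3 lines and most in PD883. Its DMSO level in PD883 was 9.35 and 11.2 CPM and its ionomycin level 0.249 and 0.244 CPM. The effects were -5.35 ± 0.36 in PD883, -2.14 ± 0.41 in PD454 and -2.51 ± 0.27 in PD7591 (contrast -3.03 ± 0.49, adjusted p = 0.0142). That call was lost without ionomycin PD454 16 (adjusted p = 0.0517) or ionomycin PD883 9 (0.0884).

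Another set of genes rose with ionomycin in PD454 and PD7591 and passed no test in PD883, where most were already high with DMSO. Cav1, the main coat protein of caveolae (chr6:17306335-17341452, plus strand), was at 420 and 278 CPM with DMSO in PD883 and at 245 and 283 CPM with ionomycin. It rose from 150 and 158 to 388 and 432 CPM in PD454 and from 112 and 151 to 468 and 446 CPM in PD7591. PD883 was thus highest with DMSO and lowest with ionomycin (contrast -2.01 ± 0.24, adjusted p = 0.00214). Gsn, the actin-severing protein gelsolin, chosen after its values were seen, was at 528 and 391 CPM in PD883 with DMSO and at 590 and 634 CPM with ionomycin. In PD7591 it rose from 78.5 and 89.9 to 524 and 441 CPM, and in PD454 from 255 and 231 to 768 and 845 CPM (contrast -1.71 ± 0.21, adjusted p = 0.00214). With ionomycin the log2 difference of Gsn between PD883 and the mean of the other lines was -0.03, so the levels met.

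Ddr2, a collagen receptor kinase, was at 17.7 and 9.63 CPM with DMSO in PD883 and at 18.1 and 14.8 CPM with ionomycin. In the other lines it lay between 0.21 and 0.533 CPM with DMSO and between 2.26 and 4.52 CPM with ionomycin, so PD883 stayed highest in both conditions (contrast -2.99 ± 0.46, adjusted p = 0.0103). Angptl2, a secreted angiopoietin-like protein, was at 6.22 and 3.77 CPM with DMSO in PD883 and at 6.06 and 6.60 CPM with ionomycin. In PD7591 it rose from 2.98 and 2.84 to 23.5 and 21.1 CPM, above PD883, and in PD454 from 0.11 and 0.0601 to 0.600 and 1.22 CPM. Its contrast was -2.82 ± 0.39 (adjusted p = 0.00675). The calls of Cav1, Gsn, Ddr2 and Angptl2 held in all 12 fits that leave out a library.

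Slc7a3, a transporter of cationic amino acids, was low in all DMSO libraries. It was at 4.05 and 1.32 CPM with DMSO in PD883 and at 2.93 and 3.03 CPM with ionomycin. It rose from 2.47 and 2.37 to 17.8 and 16.8 CPM in PD454 and from 3.73 and 4.84 to 71.4 and 75.1 CPM in PD7591. PD883 thus alone showed no rise of this gene past the test (effect 0.19 ± 0.40, adjusted p = 0.783), and the contrast was -3.28 ± 0.48 (adjusted p = 0.0103). Cthrc1, a secreted protein of the collagen triple helix repeat type, fell in PD883 from 1.03 and 1.18 to 0.497 and 0.440 CPM and rose in both other lines (contrast -2.58 ± 0.43, adjusted p = 0.0144). Without ionomycin PD883 9 the calls of Slc7a3 (adjusted p = 0.0577) and Cthrc1 (0.0756) were lost, and that of Cthrc1 also with limma-voom (adjusted p = 0.0528).

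**Figure D2:**
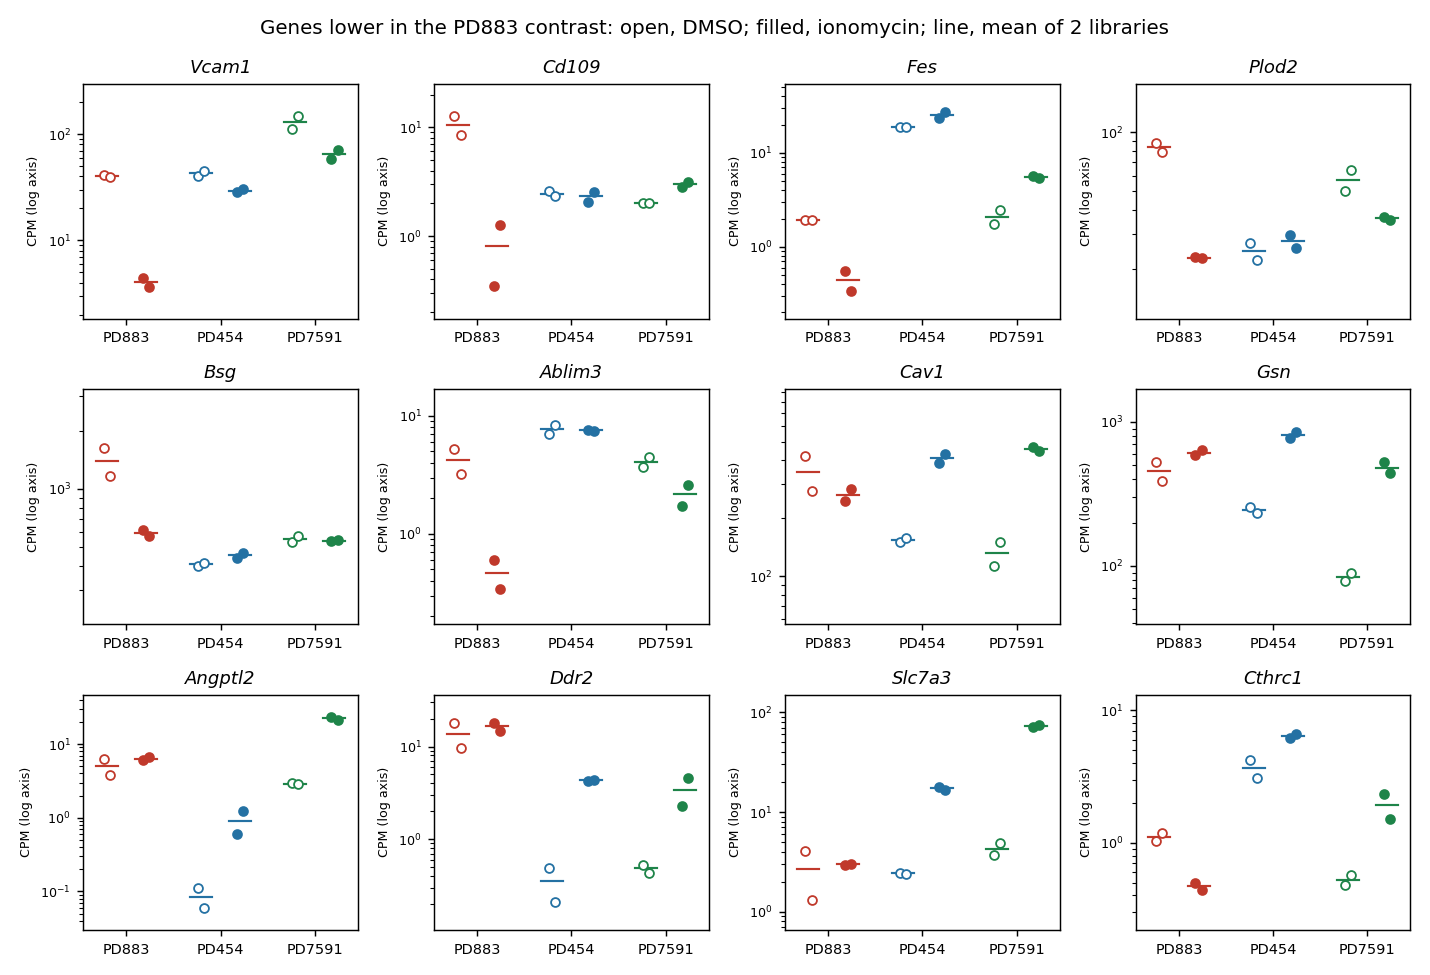
CPM of 12 genes with a lower contrast in PD883 (vertical axes, log scale) in the DMSO (open) and ionomycin (filled) libraries of each line; lines are means of the 2 libraries. Vcam1 falls to 4.47 and 3.67 CPM in PD883, while Gsn rises in PD454 and PD7591 to the level of PD883.

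Of the 31 tested members of the list of glycolysis and hypoxia genes, 14 fell and 1 rose with ionomycin in PD883, where 10.9% of all tested genes fell and 11.6% rose. The other 16 passed no test there. In PD454 1 fell and 4 rose, beside 9.34% and 11.7% of all genes, and in PD7591 1 fell and 1 rose, beside 7.41% and 11.2%. The median contrast of the list was -0.84, against -0.01 for all tested genes, and 28 of the 31 had a contrast below 0, against 6992 of 13827. In 28 of the 31 the effect was lowest in PD883, against 4681 of 13827 genes. Only Slc16a3 was called in the contrast, 1 of 31 beside 1.53% of all genes. The median ran from -0.69 to -0.96 over the 12 fits that leave out a library.

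The mean log2 CPM of the list was 7.53 and 7.26 in the PD883 DMSO libraries 7 and 8, and 6.77 and 6.50 in the ionomycin libraries 9 and 10. The 8 libraries of the other lines lay between 6.39 and 6.80. The PD883 DMSO libraries thus stood above all others, and with ionomycin PD883 lay among them. With DMSO 24 of the 31 genes were called higher in PD883 than in the other lines and 2 lower, beside 20.6% and 16.9% of all tested genes. With ionomycin 4 were higher and 3 lower, near the 14% and 11.5% of all tested genes.

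**Figure D3:**
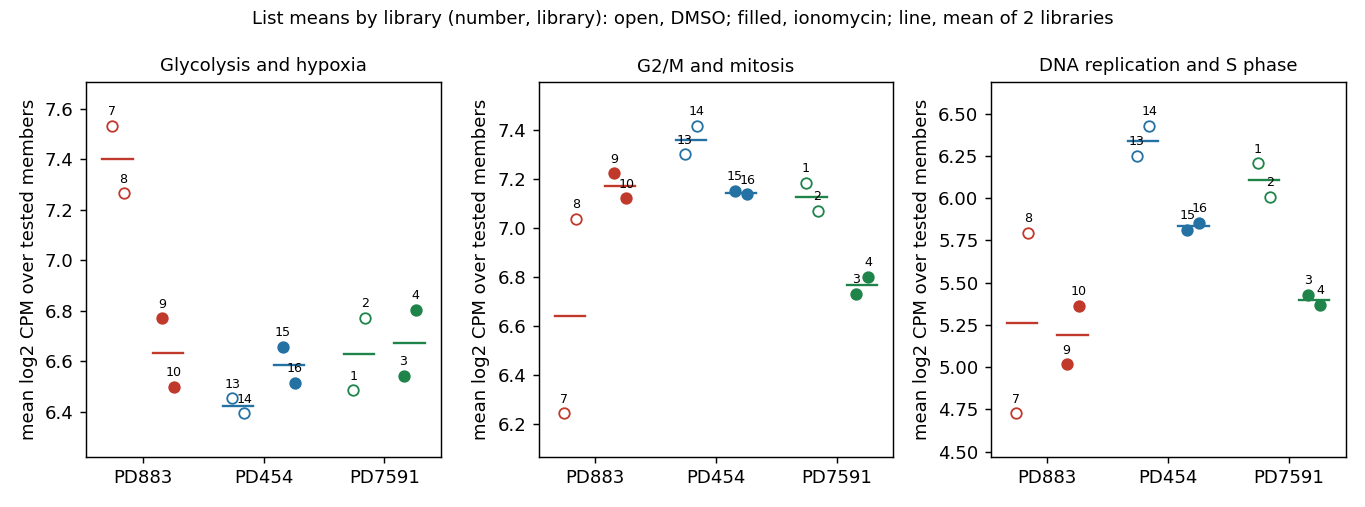
Mean log2 CPM over the tested members of 3 gene lists (vertical axes) by line, with library numbers; open points are DMSO, filled points ionomycin, and lines the means of 2 libraries. The glycolysis and hypoxia mean falls from 7.53 and 7.26 to 6.77 and 6.50 in PD883, and DMSO library 7 is lowest of all in G2/M (6.24) and S phase (4.73) genes.

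Slc16a3, a lactate exporter (chr11:120948480-120960868, plus strand), was at 452 and 403 CPM with DMSO in PD883 and at 200.4 and 229 CPM with ionomycin. The other lines lay between 95.3 and 157 CPM with DMSO and between 148 and 220 CPM with ionomycin. The effect was -0.99 ± 0.25 in PD883, 0.97 ± 0.25 in PD454 and 0.35 ± 0.25 in PD7591. The contrast of -1.66 ± 0.31 was called (adjusted p = 0.0215), but the difference from PD7591 alone was not (adjusted p = 0.0651). The call was lost without ionomycin PD454 16 (adjusted p = 0.0536), DMSO PD883 7 (0.0918) or ionomycin PD883 9 (0.128). Bsg, the chaperone basigin that brings lactate transporters to the cell surface, was chosen after its values were seen. It was at 1635 and 1164 CPM with DMSO in PD883 and at 611 and 573 CPM with ionomycin, while the other 8 libraries lay between 400.2 and 571 CPM. Its contrast of -1.30 ± 0.19 (adjusted p = 0.0103) was separated and held in all 12 fits.

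Genes that respond to low oxygen gave some of the larger falls within PD883 in this list. Ankrd37, a known target of the hypoxia-inducible factors, was at 20.5 and 20.3 CPM with DMSO and at 1.84 and 0.880 CPM with ionomycin, an effect of -3.90 ± 0.56 (adjusted p = 0.000279). In PD454 it went from 3.84 and 1.95 to 1.71 and 0.814 CPM, and in PD7591 from 4.85 and 6.02 to 1.13 and 2.04 CPM, so the ionomycin libraries of the 3 lines overlapped. Its contrast of -2.45 ± 0.68 did not pass (adjusted p = 0.0863). Egln3, one of the prolyl hydroxylases, went from 313 and 278 to 62.2 and 73.5 CPM in PD883 (-2.12 ± 0.35, adjusted p = 0.000828), and its contrast was -1.41 ± 0.42 (adjusted p = 0.104). Egln1, the main hydroxylase of that family and no member of the list, was chosen after its values were seen. It fell from 172 and 147 to 80.9 and 78.2 CPM in PD883 (contrast -0.94 ± 0.22, adjusted p = 0.0459), a call lost in 11 of the 12 fits, with adjusted p up to 0.205 without DMSO PD883 7, and not past the threshold against PD454 alone (0.153).

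Among the glycolytic enzymes Aldoc, an aldolase, went from 206 and 136 to 35.5 and 19.8 CPM in PD883 (-2.63 ± 0.46, adjusted p = 0.0012). Pfkfb3, which makes the activator of phosphofructokinase, went from 88.6 and 63.0 to 35.8 and 25.7 CPM (-1.30 ± 0.30, adjusted p = 0.00732). Both were falls within PD883 whose contrasts did not pass, with -1.77 ± 0.55 (adjusted p = 0.116) and -1.14 ± 0.37 (adjusted p = 0.127). Abundant enzymes fell by less. Pkm, pyruvate kinase, went from 6491 and 5858 to 3470 and 2925 CPM (-0.95 ± 0.17), and Ldha, lactate dehydrogenase, from 2764 and 2865 to 1578 and 1650 CPM (-0.80 ± 0.17). Only Slc16a3 of this list was called in the contrast, so these falls are not shown to be particular to PD883. Not all members took part. The glucose transporter Slc2a1 had effects of 0.42, 0.40 and 0.19 in PD883, PD454 and PD7591, and the hexokinase Hk2 of 1.03, 0.95 and 0.88, none of them called. The neuronal enolase Eno2 rose in all 3 lines, by 0.93 in PD883, 1.22 in PD454 and 1.21 in PD7591.

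**Figure D4:**
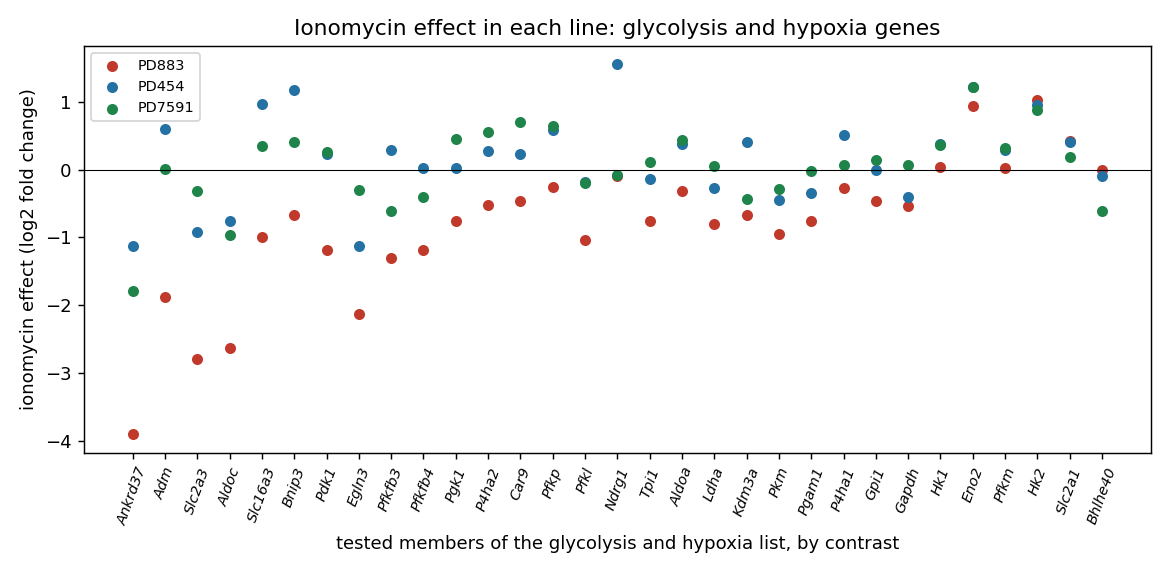
Ionomycin effect (vertical axis, log2 fold change) in PD883, PD454 and PD7591 for the 31 tested genes of the glycolysis and hypoxia list, ordered by contrast. PD883 is lowest in 28 of 31; Slc2a3 rests on few counts.

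Promoter sequence is shown for 4 members of the list that fell in PD883, all of them with a match to the pentamer described here. They do not stand for all members that fell, because the windows of Pdk1, Pfkfb4 and Kdm3a held no match. Each window runs from upstream of the annotated start to just past it (RefSeq, GRCm38.p6), at the positions given here. The pentamer ACGTG, the core of many hypoxia response elements, was searched on both strands, and matches are in capitals (ACGTG, or CACGT where the match is on the other strand). It also lies within the hexamer CACGTG, an E-box bound by other factors. The windows are chr11:120948817-120949116 on the plus strand for Slc16a3, and, on the minus strand, chr8:45999801-46000100 for Ankrd37, chr2:11553880-11554179 for Pfkfb3 and chr12:54203825-54204124 for Egln3.
Slc16a3: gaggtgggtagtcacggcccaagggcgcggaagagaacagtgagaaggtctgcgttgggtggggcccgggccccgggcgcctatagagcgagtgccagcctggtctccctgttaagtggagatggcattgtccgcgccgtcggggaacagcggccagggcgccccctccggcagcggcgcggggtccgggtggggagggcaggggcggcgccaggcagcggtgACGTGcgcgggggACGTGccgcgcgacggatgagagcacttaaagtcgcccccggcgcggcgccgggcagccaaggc
Ankrd37: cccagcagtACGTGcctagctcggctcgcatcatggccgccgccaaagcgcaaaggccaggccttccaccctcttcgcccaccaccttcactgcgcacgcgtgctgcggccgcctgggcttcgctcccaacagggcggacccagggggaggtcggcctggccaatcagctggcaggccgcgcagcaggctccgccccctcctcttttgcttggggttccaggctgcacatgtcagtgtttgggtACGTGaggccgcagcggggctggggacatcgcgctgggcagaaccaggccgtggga
Pfkfb3: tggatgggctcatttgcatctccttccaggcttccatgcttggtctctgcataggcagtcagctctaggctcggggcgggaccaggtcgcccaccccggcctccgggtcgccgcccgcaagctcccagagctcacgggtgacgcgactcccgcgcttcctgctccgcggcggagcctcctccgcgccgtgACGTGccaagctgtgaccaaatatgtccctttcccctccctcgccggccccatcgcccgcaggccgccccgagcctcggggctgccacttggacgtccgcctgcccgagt
Egln3: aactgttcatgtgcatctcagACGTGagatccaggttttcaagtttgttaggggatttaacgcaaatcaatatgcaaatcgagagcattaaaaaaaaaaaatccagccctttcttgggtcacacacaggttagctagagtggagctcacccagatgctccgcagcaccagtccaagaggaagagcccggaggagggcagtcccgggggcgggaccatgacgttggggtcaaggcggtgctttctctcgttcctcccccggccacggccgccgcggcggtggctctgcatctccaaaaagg
Slc16a3 and Ankrd37 held 2 matches each, and Pfkfb3 and Egln3 1 each. Of the 28 list members with a window, 16 (57.1%) held the pentamer, against 2666 of 10542 tested genes (25.3%) and 5315 of 27025 genes with a window (19.7%). The list was chosen for glycolysis and hypoxia genes, so its share describes that choice and cannot speak to the response of PD883. Of the G2/M list, whose contrasts lay on the other side of 0, 38.5% held it. Of the 31 separated lower genes, 18 had a window, and 7 of these (38.9%) held it. With GCGTG searched as well, the shares were 78.6% for the glycolysis and hypoxia list and 76.9% for the G2/M list, so the lists lay closer together. They were 66.7% for the separated lower genes and 62.3% for all tested genes. Where a gene has several windows, the first listed was read. The windows of Pdk1, Pfkfb4 and Kdm3a, which also fell in PD883, held 0 matches to ACGTG, and 2, 1 and 1 when GCGTG was counted too. A match is not shown to be a bound site, and no binding was measured.

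3 genes whose products act on collagen were chosen after their values were seen, and are no list. Plod2, a lysyl hydroxylase of collagen, went from 88.4 and 79.4 CPM with DMSO to 22.9 and 22.7 CPM with ionomycin in PD883. It went from 27.3 and 22.2 to 29.8 and 25.7 CPM in PD454 and from 50.3 and 63.9 to 36.7 and 35.8 CPM in PD7591, so PD883 moved from highest to lowest. Its contrast was -1.64 ± 0.21 (adjusted p = 0.00416). Fkbp14, a prolyl isomerase of the endoplasmic reticulum that acts on collagen, went from 11.5 and 10.6 to 4.62 and 5.08 CPM (contrast -1.59 ± 0.22, adjusted p = 0.00647). Both were separated and held in all 12 fits. P4ha3, a subunit of collagen prolyl hydroxylase, went from 19.0 and 16.5 to 3.38 and 3.57 CPM, with effects of -2.35 in PD883, 0.03 in PD454 and -1.16 in PD7591 (contrast -1.79 ± 0.27, adjusted p = 0.0103). Without ionomycin PD883 9 its adjusted p was 0.0596, and against PD7591 alone 0.0658. The list members P4ha1 (contrast -0.55, adjusted p = 0.248) and P4ha2 (-0.93, adjusted p = 0.099) did not pass.

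3 further genes related to low oxygen were also chosen after their values were seen. Cited2, which competes with hypoxia-inducible factors for a coactivator, went from 229 and 171 to 67.9 and 78.1 CPM in PD883, with a separated contrast of -1.28 ± 0.22 (adjusted p = 0.0152). Its level in the other 8 libraries was 59.96 to 88.5 CPM, so PD883 with ionomycin lay within their range. Apln, a peptide ligand of endothelial cells, went from 12.6 and 7.95 to 0.746 and 1.27 CPM (contrast -3.66 ± 0.69, adjusted p = 0.0218), and Mgarp, a mitochondrial protein, from 10.2 and 7.32 to 0.994 and 0.684 CPM (contrast -2.82 ± 0.49, adjusted p = 0.0162). Without DMSO PD883 7 or ionomycin PD883 9, Cited2 had adjusted p of 0.0791 and 0.106, Apln 0.0971 and 0.133, and Mgarp 0.0762 and 0.0756. Apln was also lost without ionomycin PD454 15 (0.0611) or DMSO PD7591 1 (0.0613), and Mgarp without ionomycin PD883 10 (0.0541). Against PD7591 alone Apln (0.0618) and Mgarp (0.064) did not pass.

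The genes with a higher contrast were fewer, and 4 of the 7 separated ones rose both in PD883 and in the mean of the other lines. Etv5, an ETS transcription factor induced by growth factor signalling (chr16:22381309-22439719, minus strand), went from 29.2 and 25.2 to 87.4 and 87.6 CPM in PD883. In PD454 it rose from 52.8 and 47.6 to 84.4 and 74.5 CPM and in PD7591 from 73.6 and 80.9 to 122 and 115 CPM. PD883 started lowest and reached the level of PD454. The effects were 1.69 ± 0.13, 0.66 ± 0.13 and 0.61 ± 0.13, and the contrast of 1.05 ± 0.16 (adjusted p = 0.0103) held in all 12 fits. Serpinb9b, a serine protease inhibitor, rose from 4.68 and 4.45 to 33.3 and 36.1 CPM in PD883, with effects of 2.93 ± 0.16, 1.77 ± 0.14 and 2.02 ± 0.15 (contrast 1.03 ± 0.18, adjusted p = 0.0162). It belongs to a family of similar copies, so its counts are uncertain. Tpd52l1, of the tumour protein D52 family, rose from 1.31 and 2.23 to 16.4 and 12.9 CPM in PD883, an effect of 3.02 ± 0.26 against 1.18 ± 0.22 and 1.45 ± 0.23 (contrast 1.71 ± 0.31, adjusted p = 0.0173). Without DMSO PD883 7 or ionomycin PD883 9 the calls of Serpinb9b (adjusted p = 0.0762 and 0.0581) and Tpd52l1 (0.106 and 0.0946) were lost.

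Cldn18, a claudin of gastric and lung epithelium, stood far higher in PD883 than elsewhere. It was at 1789 and 1174 CPM with DMSO there and at 2197 and 2357 CPM with ionomycin. In the other lines it fell from 4.32 to 4.88 CPM with DMSO to 1.29 to 2.53 CPM with ionomycin. PD883 did not pass the test (0.62 ± 0.24, adjusted p = 0.0773), and the contrast of 1.91 ± 0.33 (adjusted p = 0.0152) thus rested in part on the fall of a low level in the others. Rbpms2, an RNA-binding protein, rose from 7.13 and 7.04 to 17.2 and 17.01 CPM in PD883, with effects of 0.26 and 0.34 elsewhere that did not pass (contrast 0.98 ± 0.18, adjusted p = 0.0197). The long noncoding RNA Gm32856 rose from 9.29 and 8.04 to 24.7 and 20.8 CPM in PD883, while the other 8 libraries held 13.001 to 17.1 CPM (contrast 1.37 ± 0.24, adjusted p = 0.0152). Without ionomycin PD883 9 the calls of Cldn18 (adjusted p = 0.0596), Gm32856 (0.0884) and Rbpms2 (0.0884) were lost, that of Rbpms2 also without DMSO PD883 7 (0.0959) or ionomycin PD454 16 (0.0569) and with the 12 libraries alone (0.0516).

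**Figure D5:**
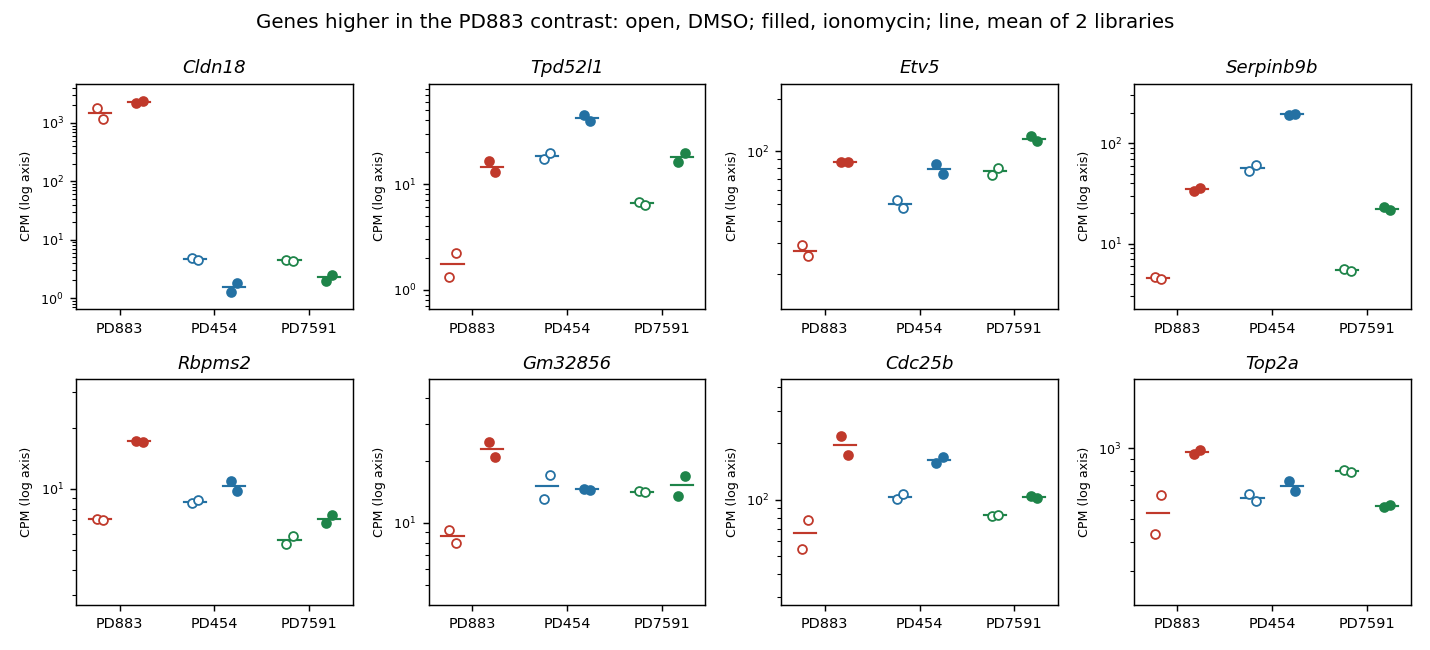
CPM of 8 genes with a higher contrast in PD883 (vertical axes, log scale) in the DMSO (open) and ionomycin (filled) libraries of each line; lines are means of the 2 libraries. Etv5 rises from 29.2 and 25.2 to 87.4 and 87.6 CPM in PD883, and Cldn18 is at 1174 CPM or more there and at 4.88 CPM or less elsewhere.

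Genes of mitosis were higher in the contrast as a list, with a size that rested on 1 DMSO library. All 32 tested members of the G2/M list had a contrast above 0 and the highest effect in PD883, against 4475 of 13827 genes with the highest effect there. The median contrast was 0.79, against -0.01 for all genes. It was 0.45 without DMSO PD883 7 and 1.28 without DMSO PD883 8. Within PD883 6 genes rose and none fell, where 11.6% of all tested genes rose and 10.9% fell. In PD454 1 rose, beside 11.7% of all tested genes. In PD7591 3 fell, near the 7.41% of all tested genes. The mean log2 CPM of the list was 6.24 in DMSO library 7 and 7.04 in DMSO library 8 of PD883, and 7.22 and 7.12 with ionomycin. The other lines lay between 7.07 and 7.42 with DMSO and between 6.73 and 7.15 with ionomycin. Library 7 thus stood below all 11 others. Its part in the contrast of the list is measured by the median of 0.45 without it, and what set it apart was not tested.

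2 of the 32 members were called, beside 0.477% of all genes called higher. Cdc25b, a phosphatase that starts mitosis, rose from 54.6 and 77.9 to 221 and 174 CPM in PD883, with an effect of 1.57 ± 0.17 against 0.65 ± 0.17 and 0.32 ± 0.17 (contrast 1.09 ± 0.20, adjusted p = 0.0215). Top2a, a DNA topoisomerase, rose from 430.2 and 629 to 946 and 983 CPM in PD883, with 0.86 ± 0.18 against 0.16 ± 0.18 and -0.50 ± 0.18 (contrast 1.04 ± 0.22, adjusted p = 0.0313). Both calls were lost without DMSO PD883 7 (adjusted p = 0.114 and 0.186), and without 1 of 4 other libraries for Cdc25b and of 9 others for Top2a as well. Against PD454 alone neither passed (adjusted p = 0.0788 and 0.206). With the 12 DMSO and ionomycin libraries alone the call of Top2a was lost (adjusted p = 0.0502). Of the 38 S phase genes none was called, beside 1.53% of all tested genes. The median contrast of the S phase list was 0.42. It was -0.03 without DMSO PD883 7 and 1.05 without DMSO PD883 8, so either DMSO library moved it widely.

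In the list of mesenchymal markers and EMT factors 3 of 27 were called, all lower and among them Vim and S100a4, beside 1.05% of all genes called lower, and the median contrast was -0.35. Vim, the intermediate filament protein vimentin, was at 2876 and 2042 CPM with DMSO in PD883 and at 2036 and 1984 CPM with ionomycin. It rose from 1111 and 1088 to 1986 and 2575 CPM in PD7591 and went from 1657 and 1784 to 2334 and 2250 CPM in PD454. With ionomycin the lines thus overlapped. Its contrast of -1.02 ± 0.24 lay at the threshold (adjusted p = 0.049976) and was lost in 10 of the 12 fits, with adjusted p up to 0.233 without DMSO PD883 7. Against PD454 alone it did not pass (adjusted p = 0.25), and the call was lost with the 12 DMSO and ionomycin libraries alone (0.0581). S100a4, a calcium-binding protein of motile cells, went from 60.3 and 108 to 23.8 and 23.1 CPM in PD883 (contrast -1.84 ± 0.43, adjusted p = 0.0485), a call also lost in 10 of the 12 fits, up to 0.179 without ionomycin PD883 9. S100a4 lay between 6.19 and 23.2 CPM in the other lines, and its difference from PD454 alone was smaller and did not pass (-1.002, adjusted p = 0.36). Its call was lost with the 12 DMSO and ionomycin libraries alone (adjusted p = 0.0502) and with limma-voom (0.0533). Of its exonic bases 51.7% are shared with another annotated gene. The transcription factors Snai2 (contrast 1.08 ± 0.38, adjusted p = 0.163) and Zeb1 (0.23 ± 0.26, adjusted p = 0.703) and the matrix protein Fn1 (-0.24 ± 0.45, adjusted p = 0.842) were not called. Snai2 rose in each line, by 2.13 ± 0.32 in PD883, 1.07 ± 0.31 in PD454 and 1.04 ± 0.31 in PD7591.

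In the matrix list 2 of 33 were called lower, beside 1.05% of all genes, with a median of -0.53. Thbs1, thrombospondin, fell from 66.5 and 39.5 to 10.1 and 14.7 CPM in PD883 (contrast -1.99 ± 0.43, adjusted p = 0.0356). Col6a1, a chain of collagen VI, rose in all lines and least in PD883, by 1.42 ± 0.33 against 3.97 ± 0.37 and 2.94 ± 0.35 (contrast -2.04 ± 0.40, adjusted p = 0.0244). Its DMSO level in PD883 was 263 and 119 CPM, above the 18.6 to 58.0 CPM of the others. Fst, the activin inhibitor follistatin, was the 1 called of 38 TGFb pathway genes, beside 1.05% of all genes called lower. It rose by 4.05 ± 0.42 in PD454 and by 0.96 ± 0.30 in PD7591 and had 0.61 ± 0.28 in PD883 (contrast -1.89 ± 0.39, adjusted p = 0.0303). The difference from PD454 alone passed (adjusted p = 0.00874) and that from PD7591 alone did not (0.714). These 3 calls had adjusted p of 0.199, 0.142 and 0.12 without DMSO PD883 7, and of 0.189, 0.154 and 0.128 without ionomycin PD883 9. Thbs1, Col6a1 and Fst were lost in 9, 5 and 9 of the 12 fits. Against PD7591 alone Thbs1 (adjusted p = 0.136) and Col6a1 (0.0986) did not pass. With the 12 DMSO and ionomycin libraries alone the calls of Thbs1 (adjusted p = 0.0647) and Fst (0.0563) were lost.

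Of 31 epithelial junction and identity genes only Ehf, an epithelial ETS factor, was called, beside 1.53% of all tested genes. It fell from 40.5 and 33.4 to 10.6 and 13.1 CPM in PD883 (contrast -1.49 ± 0.27, adjusted p = 0.0194), a call lost without DMSO PD7591 1 (0.059), DMSO PD883 7 (0.0959) or ionomycin PD883 9 (0.12). Against PD7591 alone Ehf did not pass (adjusted p = 0.0865). The epithelial cadherin Cdh1 had a contrast of -0.18 ± 0.39 (adjusted p = 0.875). All 10 tested desmosome genes had a contrast below 0 (median -0.47), and none was called, beside 1.53% of all tested genes.

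Among the lists of genes that respond to calcium and to stress, only Slc7a3 was separated in PD883, beside 0.275% of all tested genes. None of 27 calcium handling genes, 16 calcineurin and NFAT genes or 26 endoplasmic reticulum chaperones was called, beside 1.53% of all tested genes. At that share lists of this size would hold few calls, so their absence says little about these genes. The median contrasts were -0.07, -0.09 and -0.02. The calcium pump gene Atp2a3 rose in each line, by 3.92 ± 0.33 in PD883, 3.98 ± 0.32 in PD454 and 5.41 ± 0.35 in PD7591 (contrast -0.78 ± 0.37, adjusted p = 0.294). Rcan1, an inhibitor and target of calcineurin, was at 13.7 and 15.2 CPM with DMSO in PD883 and at 23.6 and 76.1 CPM with ionomycin. The ionomycin libraries 9 and 10 of PD883 thus differed widely in it, and both lay below the 139 to 243 CPM of the other lines (contrast -1.37 ± 0.45, adjusted p = 0.134). The collagenase gene Mmp13 also differed between them, at 16.8 CPM in library 9 and 68.8 CPM in library 10, against 48.5 to 257 CPM in the others. In the integrated stress response list 26 of 32 genes rose in PD883, 22 in PD454 and 25 in PD7591, where 11.6%, 11.7% and 11.2% of all tested genes rose. Atf4, its central transcription factor, rose in PD883 by 1.27 ± 0.23 (contrast 0.70 ± 0.27, adjusted p = 0.209), and Ddit3, which encodes CHOP, by 2.72 ± 0.39 (contrast 1.07 ± 0.46, adjusted p = 0.253). The chaperone Hspa5 had a contrast of 0.06 ± 0.23 and the immediate early gene Fos of 0.64 ± 0.29, and neither was called.

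2 of 30 immediate early genes were called lower, beside 1.05% of all genes. Dusp1, a phosphatase of MAP kinases, had effects of -0.48 ± 0.24 in PD883, 1.96 ± 0.25 in PD454 and 0.52 ± 0.24 in PD7591 (contrast -1.72 ± 0.30, adjusted p = 0.0152). Ier3, a survival gene, had 0.25 ± 0.19, 1.45 ± 0.20 and 1.51 ± 0.19 (contrast -1.23 ± 0.23, adjusted p = 0.0221). Hspa1a, an inducible chaperone, was the 1 called of 17 heat shock genes, beside 1.05% of all genes called lower. Its effects were -0.70 ± 0.21, 1.11 ± 0.21 and 0.10 ± 0.21 (contrast -1.30 ± 0.26, adjusted p = 0.0259), and it has a near-identical copy, Hspa1b. Without DMSO PD883 7 or ionomycin PD883 9 these calls were lost, with adjusted p of 0.0791 and 0.11 for Dusp1, 0.106 and 0.134 for Ier3, and 0.0959 and 0.11 for Hspa1a. Ier3 and Hspa1a were lost without 2 and 5 other libraries too. Dusp1 (adjusted p = 0.138) and Hspa1a (0.172) did not pass against PD7591 alone, nor Ier3 against PD454 alone (0.0515). With the 12 DMSO and ionomycin libraries alone the call of Hspa1a was lost (adjusted p = 0.0563).

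In the list of cholesterol and fatty acid synthesis most genes fell in each line. Of 34 genes 24 fell in PD883, 20 in PD454 and 30 in PD7591, where 10.9%, 9.34% and 7.41% of all tested genes fell. Hmgcs1, which makes the precursor of mevalonate, had effects of -0.37 ± 0.13, -0.53 ± 0.13 and -1.80 ± 0.14 (contrast 0.79 ± 0.16, adjusted p = 0.0281), and Insig1, which holds back the sterol sensor, of -0.65 ± 0.14, -0.90 ± 0.14 and -1.91 ± 0.15 (contrast 0.76 ± 0.17, adjusted p = 0.0446). The difference of PD883 from PD454 alone did not pass for either (adjusted p = 0.727 and 0.581), and that from PD7591 alone passed for both (0.00341 and 0.00978). With the 12 DMSO and ionomycin libraries alone neither contrast passed (adjusted p = 0.0502 and 0.0713). Both calls were lost in 11 of the 12 fits, with adjusted p up to 0.111 and 0.191. Tcf7, a Wnt pathway transcription factor, was the 1 called of 23 Wnt and Notch genes, beside 0.477% of all genes called higher. It had effects of 0.42 ± 0.14, -0.25 ± 0.14 and -0.53 ± 0.15 (contrast 0.80 ± 0.17, adjusted p = 0.0338). The call was lost with the 12 DMSO and ionomycin libraries alone (adjusted p = 0.0793). That call was also lost in 11 of the 12 fits, and Tcf7 did not pass against PD454 alone (adjusted p = 0.131).

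Of 31 interferon-stimulated genes, 11 fell and 2 rose in PD883, where 10.9% of all tested genes fell and 11.6% rose. In each of the other lines 4 fell and 1 rose. Of all tested genes 9.34% fell and 11.7% rose in PD454, and 7.41% fell and 11.2% rose in PD7591. None was called in the contrast, beside 1.53% of all tested genes. The median of -0.31 became -0.68 without ionomycin PD883 9, -0.61 without DMSO PD7591 2, -0.57 without DMSO PD883 8, -0.55 without DMSO PD454 13 and -0.50 without ionomycin PD7591 3.

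Several genes had few counts, and were chosen after their values were seen. Srgn, the proteoglycan serglycin of blood cells, had 1 count in the 2 PD883 DMSO libraries and 26 with ionomycin. In PD454 it went from 55 counts to 1 and in PD7591 from 15 to 0. Arhgdib went from 1 to 16 counts in PD883, from 55 to 2 in PD454 and from 15 to 0 in PD7591, and Laptm5 from 4 to 16, from 31 to 1 and from 20 to 0. These are genes of leukocytes, and the leukocyte gene Ptprc was at 1 to 5 counts in each of these libraries. Summed over the 16 immune markers, PD883 had 67.2 to 76.4 CPM with DMSO and 75.0 to 85.7 CPM with ionomycin, PD454 39.0 to 51.9 and 48.7 to 54.9 CPM, and PD7591 74.4 to 83.8 and 134 to 206 CPM. In each of these groups 4 to 6 of the 16 were at 0. The part of other cells in these counts was not tested. In bulk libraries a change in the share of cells and a change per cell cannot be told apart. The ephrin receptor gene Ephb2 had 45 counts with DMSO and 1 with ionomycin in PD883, 27 and 20 in PD454 and 40 and 32 in PD7591. Without DMSO PD883 7 or ionomycin PD883 9 the calls of Srgn (adjusted p = 0.0791 and 0.0586) and Ephb2 (0.0762 and 0.0861) were lost, that of Ephb2 also without ionomycin PD883 10 (0.0632).

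The other separated genes were likewise lower and were chosen after their values were seen. Tctn2 (-1.63), Rasgrp3 (-1.95), Endod1 (-1.84), Tmem173 (-1.78), Wdpcp (-2.12), Mob3c (-1.44), Ephb6 (-3.30) and AI429214 (-2.86) fell in PD883. Ell (-0.87), Pbxip1 (-1.45) and C920009B18Rik (-1.82) also fell there, while Mal (-1.73) and Btn1a1 (-2.97) rose in both other lines and passed no test in PD883. The values in brackets are contrasts on the log2 scale. Rasgrp3, an activator of RAS proteins, went from 13.2 and 16.4 to 1.89 and 5.08 CPM in PD883, and Tmem173, the sensor adaptor STING, from 8.61 and 6.998 to 2.24 and 2.49 CPM. Tctn2 and Rasgrp3 held in all 12 fits. Each of the other 11 was lost without ionomycin PD883 9, with adjusted p between 0.0596 (Wdpcp) and 0.123 (Ell), and 7 of them also without DMSO PD883 7, between 0.0558 (Mob3c) and 0.113 (Ell).

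TGFb gave other levels of these genes in PD883, listed here without a test because both treatments share their DMSO libraries. Vcam1 was low there too, at 6.23 and 4.62 CPM with TGFb. Cd109 stood at 27.3 and 19.8 CPM, Plod2 at 264 and 227 CPM, Cthrc1 at 49.8 and 39.0 CPM and Angptl2 at 137 and 150 CPM, each above both its DMSO and its ionomycin libraries in PD883. Cldn18 was lower, at 396 and 352 CPM, and Slc7a3 stood at 2.14 and 2.35 CPM. The mean log2 CPM of the glycolysis and hypoxia list was 7.05 and 6.31 in the PD883 TGFb libraries 11 and 12.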

How the data were processed

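Libraries of 3 lines with DMSO, ionomycin or TGFb were sequenced, and their totals are given in the results. The deposited table holds raw counts per gene, made by the authors with CASAVA, Trimmomatic 0.32, STAR and featureCounts on mm10, per the submitters' processing notes; the sources used here state no settings, strand mode or annotation release. Counts on overlapping genes can therefore mix: S100a4 shares 51.7%, Hspa1a 19%, Hmgcs1 12.1%, Serpinb9b 8.3%, Plod2 6.42% and Fkbp14 5.01% of exonic bases with another gene in GENCODE M21, from which positions were also taken.

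Of 24527 entries, 13827 passed edgeR's expression filter over the 9 groups. One mean per group was fitted over all 18 libraries with TMM scaling and robust quasi-likelihood dispersion (edgeR 4.0.16, limma 3.58.1, R 4.3.3). The test was tried on simulated counts with a known effect in PD883 alone. These were drawn independently for each gene and library, so they do not cover shifts of whole libraries like those described in the results. Adjusted p-values are Benjamini-Hochberg over all tested genes, and adjusted p under 0.05 is a call. SE is the log2 difference divided by the square root of F.

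The named genes were up to 10 separated genes in each direction with the largest contrast and a mean of at least 2 CPM (6 higher and 10 lower), the 4 smallest p, up to 2 called genes per direction in each of 34 lists, and a fixed panel. Gene lists and members were chosen with earlier results of these data known. Alternatives were DESeq2 1.42.0, limma-voom, other scaling, no filter, a fold threshold, the 12 libraries alone, and leaving out each library. Gene symbols that a spreadsheet had turned into dates are not named. 1 gene that met the naming rule is not reported here.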

Additional observations from a re-analysis of the deposited data

Results flagged for a closer look

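Each of these genes passed a test of the difference between the ionomycin effect in PD883 and the mean effect in the other lines (edgeR quasi-likelihood test), and each value is that difference on the log2 scale. The higher ones were Cldn18 (1.91), Tpd52l1 (1.71), Gm32856 (1.37), Cdc25b (1.09), Etv5 (1.05), Top2a (1.04), Serpinb9b (1.03), Rbpms2 (0.98), Tcf7 (0.80), Hmgcs1 (0.79) and Insig1 (0.76). The lower ones past 2 were Cd109 (-3.93), Slc7a3 (-3.28), Pcyt1b (-3.03), Fes (-3.02), Ddr2 (-2.99), Angptl2 (-2.82), Ablim3 (-2.67), Cthrc1 (-2.58), Vcam1 (-2.55), Col6a1 (-2.04) and Cav1 (-2.01). The remaining lower ones were Thbs1 (-1.99), Fst (-1.89), S100a4 (-1.84), Dusp1 (-1.72), Slc16a3 (-1.66), Ehf (-1.49), Hspa1a (-1.30), Ier3 (-1.23) and Vim (-1.02).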

How the results depend on the processing

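The counts of called genes moved with most choices. The 66 higher, 145 lower, 7 separated higher and 31 separated lower genes became 188, 394, 38 and 114 with no low-count filter, 285, 459, 51 and 105 with DESeq2, and 26, 94, 4 and 16 with the 12 libraries alone. Against a fold threshold of log2 1 they were 0, 3, 0 and 1 (edgeR). With limma-voom 16 separated lower genes were called. Among the named genes, limma-voom lost the calls of S100a4, Ephb2 (adjusted p = 0.0616), Ephb6 (0.0541), Cthrc1 and Sdc2. The 12 libraries alone (edgeR) lost those of Rbpms2, S100a4, Fst, Thbs1, Hmgcs1, Insig1, Top2a, Hspa1a, Tcf7 and Vim, and of Sdc2 (adjusted p = 0.0502). Without the low-count filter S100a4 (0.0584), Thbs1 (0.0705) and Tcf7 (0.0709) were lost, and with library totals S100a4 (0.057) and Insig1 (0.0593). Against PD454 alone 24 genes were higher, and against PD7591 alone 121. Chosen after seeing the data, a length offset gave 181, 304, 22 and 65, and leaving out DMSO PD883 8 and DMSO PD454 14 together gave 208 higher, 238 lower and 14 separated higher genes. Leaving out 1 library gave 5 to 242 higher, 15 to 278 lower, 0 to 68 separated higher and 4 to 60 separated lower genes, the lowest or highest mostly without ionomycin PD883 9 or DMSO PD883 7 and 8; each of the 12 libraries moved at least 1 of these counts by over 1.5 times. The cause was not tested.

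Of the single genes in all alternatives, 1297 values kept direction and call, 247 lost the call, 4 gained one and 11 reversed, all of them uncalled genes. Over the fits without 1 library, Cdh1 ran from -0.42 (without DMSO PD883 8) to 0.14 (without DMSO PD883 7), Fn1 from -0.78 to 0.64 and Zeb1, in the other order, from -0.0029 to 0.53. Hspa5 ran from -0.041 (without ionomycin PD883 9) to 0.17 (without ionomycin PD883 10), below 0 also without DMSO PD454 14 (-0.016) or DMSO PD883 7 (-0.024). Mmp13 ran from -0.33 (without ionomycin PD883 10) to 2.35 (without DMSO PD883 8). Against PD454 alone Zeb1 was -0.087 and Fos -0.16, and against PD7591 alone Hspa5 was -0.38 and Fn1 0.21. No paired analysis was made, because the labels do not say which DMSO and ionomycin libraries, if any, belong together. 2 libraries a group limit what any of these tests can show.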
